A study of Homo sapiens with 18 samples.

Results

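INSIG1, INSIG2, SREBF1, SREBF2, SCAP, STARD4, NPC1 and NPC2 form the sterol-sensing switch of the cell and part of its route for taken-up cholesterol. These 8 genes were followed in NCI-H2347, a human lung cancer cell line. They were chosen by name, as all probes annotated to these symbols, out of 20046 genes with a symbol on the BeadChip. The choice was made with results for pioglitazone against vehicle in view. The differences between drug and vehicle, and how these differ between times, are therefore given here as a description, with their errors. No p-values are printed for them, and where they are said to pass a threshold nothing is read from that. The 8 genes had 11 probes. Of these 9 were kept for analysis, which left 7 genes that could be tested among 11680, and STARD4 did not pass the filter for signal above background.

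The medium of every culture was RPMI with 5% fetal bovine serum. The 6 groups received either 50 µM pioglitazone, a thiazolidinedione ligand of the nuclear receptor PPARγ, or DMSO as the vehicle, for 12, 24 or 48 h. Each group had 3 arrays, 18 in all. The sources do not say that the arrays of a group came from separate cultures, so the p-values rest on a spread from array to array that may be technical only. A single cell line and a single dose limit the results to this model.

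Cholesterol in the endoplasmic reticulum is sensed by SCAP, which escorts the SREBP transcription factors, encoded by SREBF1 and SREBF2, to the Golgi. There proteases release the active factors. When sterols are plentiful, the INSIG proteins hold SCAP and SREBP back in the endoplasmic reticulum. INSIG1 is itself a target of the SREBPs and so closes a feedback loop, and SREBP-2 mainly drives sterol synthesis and uptake while SREBP-1c mainly drives fatty acid synthesis. Cholesterol that arrives by endocytosis leaves late endosomes and lysosomes through NPC2, a soluble carrier in the lumen, and NPC1, in the membrane. STARD4 moves sterol between membranes through the cytosol.

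The promoter sequences of INSIG1 and NPC1, whose signals lay above vehicle on all treated arrays at all 3 times, and of SREBF1 and SREBF2, which encode the factors themselves, are shown for comparison. Each is the 250 bases before the annotated start of the gene in RefSeq (build GRCh38.p14), read 5′ to 3′ on the strand of the gene. Capitals mark a sterol regulatory element (TCACNCCAC), an E-box (CACGTG) or a CCAAT box (CCAAT), searched on both strands.
INSIG1, chr7:155297628-155297877, plus strand: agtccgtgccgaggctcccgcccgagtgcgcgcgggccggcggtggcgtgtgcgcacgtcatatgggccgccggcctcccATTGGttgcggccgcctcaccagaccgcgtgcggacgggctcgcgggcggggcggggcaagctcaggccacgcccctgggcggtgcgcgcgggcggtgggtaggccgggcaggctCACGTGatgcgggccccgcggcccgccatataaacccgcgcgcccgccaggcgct
NPC1, chr18:23586507-23586756, minus strand: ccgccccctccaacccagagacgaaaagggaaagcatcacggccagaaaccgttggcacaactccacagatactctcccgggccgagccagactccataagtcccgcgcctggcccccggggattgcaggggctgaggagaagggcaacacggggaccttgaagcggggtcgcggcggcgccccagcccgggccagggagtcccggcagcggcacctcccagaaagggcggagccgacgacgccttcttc
SREBF1, chr17:17836987-17837236, minus strand: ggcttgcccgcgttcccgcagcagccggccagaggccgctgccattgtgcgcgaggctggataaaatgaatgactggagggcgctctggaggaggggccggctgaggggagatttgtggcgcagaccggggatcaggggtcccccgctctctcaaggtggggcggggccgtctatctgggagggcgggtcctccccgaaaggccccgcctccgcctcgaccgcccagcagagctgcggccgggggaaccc
SREBF2, chr22:41832855-41833104, plus strand: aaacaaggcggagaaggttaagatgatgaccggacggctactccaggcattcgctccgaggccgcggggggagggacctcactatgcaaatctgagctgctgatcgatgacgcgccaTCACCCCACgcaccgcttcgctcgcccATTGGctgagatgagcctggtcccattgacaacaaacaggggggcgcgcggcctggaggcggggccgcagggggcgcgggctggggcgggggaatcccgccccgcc
The INSIG1 window held an E-box, 55 to 50 bases before the start, and a CCAAT box on the opposite strand, 170 to 166 bases before it. The SREBF2 window held a sterol regulatory element, 133 to 125 bases before the start, and a CCAAT box on the opposite strand. Of all 35116 promoter windows of this length, 0.883% held the sterol regulatory element, 6.34% the E-box and 32% the CCAAT box. None of these letters was found in the windows of NPC1 and SREBF1, which says only that they are not in these 250 bases. The DR1 direct repeat of the kind PPAR and RXR bind, searched as a consensus without mismatches, was in 0.0171% of all windows and in none of the 10 windows of the 8 genes. Of the windows not shown, that of SCAP held an E-box, that of STARD4 and 1 of the 2 of NPC2 held CCAAT boxes, and those of INSIG2 held none of the motifs.

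The arrays detected 36.0% to 39.9% of 47323 probes. All 6 epithelial marker genes, among them EPCAM and KRT8, were detected on all 18 arrays, as were the lung factor NKX2-1 and NAPSA, while of the surfactant genes SFTPA1 was detected on 15 and SFTPB and SFTPC on none. Markers of other cells were mixed: PTPRC, PDGFRB, PECAM1 and CDH5 were detected on no array, DCN on 2, VWF on 10, CD3D on 11 and CD14 on 17, and COL1A1, COL1A2 and CD68 on all. The arrays fell into 2 ranges of background, the median intensity of the undetected probes. It was 102 to 113 on 11 arrays and 138 to 153 on 7, which were all arrays at 24 h and the third pioglitazone array at 48 h. Comparisons within 12 h and within 24 h therefore lay within 1 range. At 48 h the third pioglitazone array stood apart. For all 7 tested members its value lay nearer to the mean of pioglitazone at 24 h than to the mean of the other 2 arrays at 48 h, which held for 53.1% of all genes. Over all genes its correlation was 0.976 with the mean of pioglitazone at 24 h and 0.979 with the mean of those 2 arrays. The members' values at 48 h with pioglitazone are given with and without it.

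**Figure D1:**
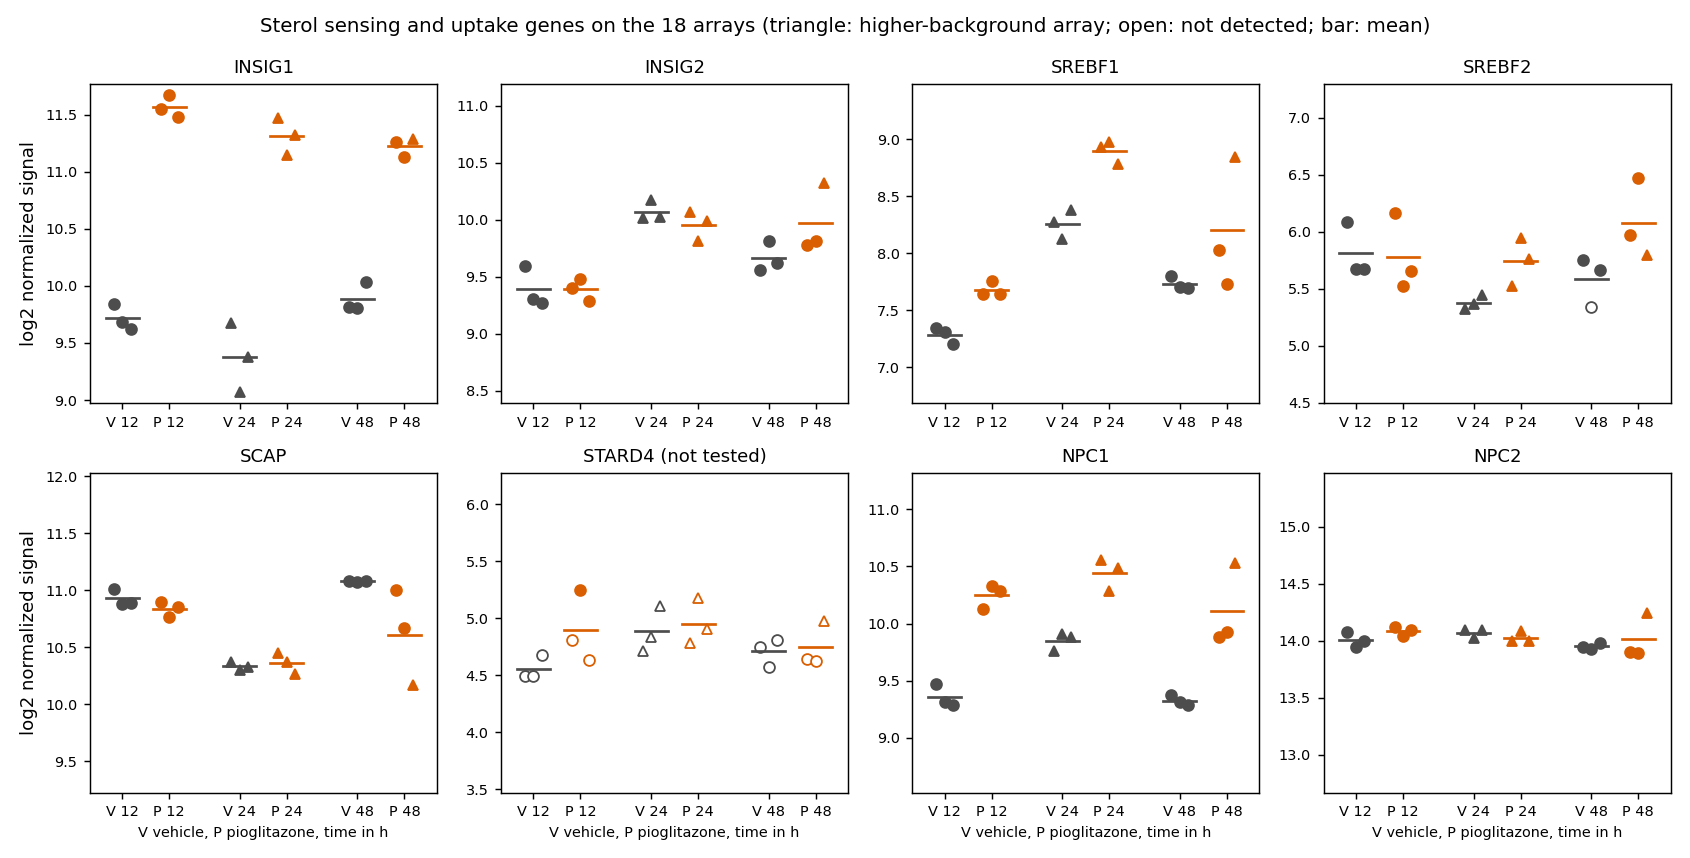
Log2 normalized signal of each gene on each of the 18 arrays, by group (V vehicle, P pioglitazone, time in h), with a bar at the mean of 3 arrays. Triangles are arrays of the higher background range and open symbols are values not detected. INSIG1 and NPC1 lay above vehicle at every time, and the third array at 48 h (triangle) lay apart from its group for SREBF1, SCAP, INSIG2 and NPC1.

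INSIG1, the SREBP-induced brake on SREBP processing, was the member most raised by pioglitazone, about 3.6-fold at 12 h. Its log2 signal in vehicle at 12 h was 9.84, 9.69 and 9.63, and with pioglitazone it was 11.55, 11.67 and 11.48. The unnormalised intensity averaged 759 ± 122 (SD, n = 3) in vehicle and 2746 ± 366 with the drug. Every treated array lay above every vehicle array. The log2 change was 1.85 (SE 0.14, n = 3 per group), a 3.61-fold difference. The arrays measured RNA of whole cultures, so more RNA per cell and a different mix of cells cannot be told apart.

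At 24 h the INSIG1 signal was 9.67, 9.07 and 9.38 in vehicle and 11.47, 11.15 and 11.33 with pioglitazone. At 48 h it was 9.82, 9.80 and 10.03 in vehicle and 11.26, 11.13 and 11.29 with pioglitazone. The groups were separate at both times. The log2 change was 1.94 (SE 0.14) at 24 h and 1.34 (SE 0.14) at 48 h, 3.85-fold and 2.53-fold. Without the third array the change at 48 h was 1.31.

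A second, dimmer INSIG1 probe (ILMN_1686989, beside ILMN_1793474 above) gave drug changes of similar size that were also smallest at 48 h. Its signal within each treatment took a different course over time. Its log2 signal at 12 h was 7.39, 7.38 and 7.43 in vehicle and 9.54, 9.39 and 9.56 with pioglitazone. At 24 h it was 7.39, 7.22 and 7.42 in vehicle and 9.40, 9.28 and 9.22 with pioglitazone. At 48 h it was 6.95, 6.95 and 7.10 in vehicle and 7.82, 8.17 and 8.47 with pioglitazone. The groups were separate at each time, and the drug arrays were lowest at 48 h. The log2 change with the drug was 2.10 at 12 h, 1.96 at 24 h and 1.16 at 48 h (SE 0.13 each), and 1.00 at 48 h without the third array.

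**Figure D2:**
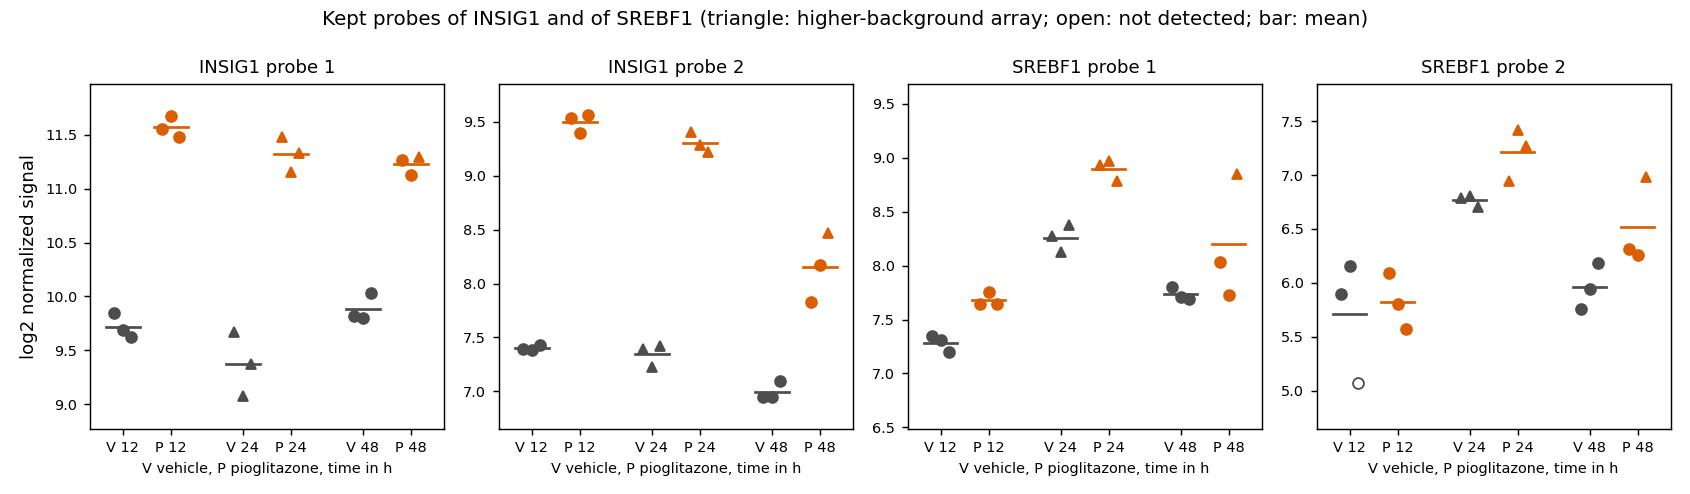
Log2 normalized signal of the 2 kept probes of INSIG1 and of SREBF1 by group, as 3 arrays and their mean (triangles: higher background range, open: not detected). With pioglitazone the first INSIG1 probe held between 11.13 and 11.67, while the second stood at 9.22 to 9.56 at 12 and 24 h and at 7.82 to 8.47 at 48 h.

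INSIG2, the second INSIG protein, which in rodent liver is known for an insulin-repressed transcript, did not separate by treatment. Its log2 signal at 12 h was 9.60, 9.30 and 9.27 in vehicle and 9.40, 9.48 and 9.29 with pioglitazone. At 24 h it was 10.02, 10.17 and 10.03 in vehicle and 10.07, 9.81 and 9.99 with the drug. At 48 h it was 9.56, 9.82 and 9.62 in vehicle and 9.78, 9.81 and 10.32 with the drug. The groups overlapped at each time. The changes were 0.00024 (95% confidence interval −0.29 to 0.29), −0.11 (−0.41 to 0.18) and 0.31 (0.011 to 0.60). The last was 0.13 without the third array.

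The SREBP genes moved less than INSIG1. SREBF1 had 3 probes, of which 1 (ILMN_1695378) was detected on no array. The brightest (ILMN_1663035) read 7.35, 7.31 and 7.20 in vehicle and 7.64, 7.76 and 7.64 with pioglitazone at 12 h. At 24 h it read 8.27, 8.12 and 8.38 in vehicle and 8.94, 8.97 and 8.78 with the drug. At both times all treated arrays lay above all vehicle arrays. At 48 h the vehicle values were 7.80, 7.71 and 7.69 and the pioglitazone values 8.03, 7.73 and 8.85, so that the groups overlapped.

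The log2 change of SREBF1 was 0.39 (SE 0.19) at 12 h, 0.64 (SE 0.19) at 24 h and 0.47 (SE 0.19) at 48 h, the last falling to 0.14 without the third array. The other detected probe (ILMN_2328986), annotated to a different transcript of the gene, gave 0.11, 0.45 and 0.55 (SE 0.24 each), and 0.32 at 48 h without that array. SREBF1 encodes both SREBP-1a and SREBP-1c, which these probes were not used to tell apart.

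SREBF2, which encodes SREBP-2, was read by 1 dim probe that was detected on 17 of 18 arrays. Its log2 signal ranged from 5.32 to 6.47, with a median of 5.67. At 12 h the groups overlapped, with a change of −0.028 (95% confidence interval −0.43 to 0.37). At 24 h the vehicle values 5.32, 5.36 and 5.45 lay below the pioglitazone values 5.52, 5.94 and 5.76, a change of 0.36 (SE 0.19). The unnormalised intensities overlapped there, at 184 on vehicle replicate 3 and 181 on pioglitazone replicate 3. At 48 h the vehicle values were 5.75, 5.34 and 5.66 and the pioglitazone values 5.97, 6.47 and 5.80, a change of 0.49 (SE 0.19) and of 0.63 without the third array. With no background correction the change was smaller, 0.11 at 24 h and 0.17 at 48 h.

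SCAP, the sterol-sensing escort, was level between the treatments at 12 and 24 h. The signal at 12 h was 11.01, 10.88 and 10.89 in vehicle and 10.90, 10.76 and 10.85 with pioglitazone, and at 24 h it was 10.37, 10.30 and 10.32 against 10.45, 10.37 and 10.26. The groups overlapped, and the changes were −0.090 (95% confidence interval −0.39 to 0.22) and 0.030 (−0.27 to 0.34). At 48 h the vehicle arrays read 11.08, 11.07 and 11.08 and the pioglitazone arrays 10.998, 10.67 and 10.17. All 3 treated arrays lay below vehicle, with the third lowest. The change was −0.47 (SE 0.14), and −0.25 without the third array.

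Of the lysosomal pair, NPC1 was higher with pioglitazone at each time and NPC2 was not. NPC1 read 9.47, 9.32 and 9.28 in vehicle and 10.13, 10.33 and 10.29 with the drug at 12 h. At 24 h it read 9.75, 9.91 and 9.88 in vehicle and 10.55, 10.29 and 10.48 with the drug, and at 48 h 9.37, 9.31 and 9.28 against 9.88, 9.92 and 10.53. No treated array overlapped the vehicle arrays of its time. The log2 change was 0.89 at 12 h, 0.59 at 24 h and 0.79 at 48 h (SE 0.14 each), which is 1.85-fold, 1.51-fold and 1.73-fold. Without the third array the change at 48 h was 0.58.

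NPC2 had the narrowest range of the tested members, 13.89 to 14.24 on the log2 scale over all 18 arrays, with a median of 14.01. Its groups overlapped at each time. The changes were 0.081 (95% confidence interval −0.13 to 0.29), −0.047 (−0.25 to 0.16) and 0.062 (−0.14 to 0.27), the last being −0.053 without the third array. The highest of its 18 values was that of the third pioglitazone array at 48 h.

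STARD4, the cytosolic sterol carrier, was read by 1 probe that was detected on 1 of 18 arrays, pioglitazone replicate 2 at 12 h. Its log2 signal ranged from 4.49 to 5.25, and no fold change is given because all groups lay at background on nearly all arrays. The largest value belonged to the array on which it was detected.

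**Figure D3:**
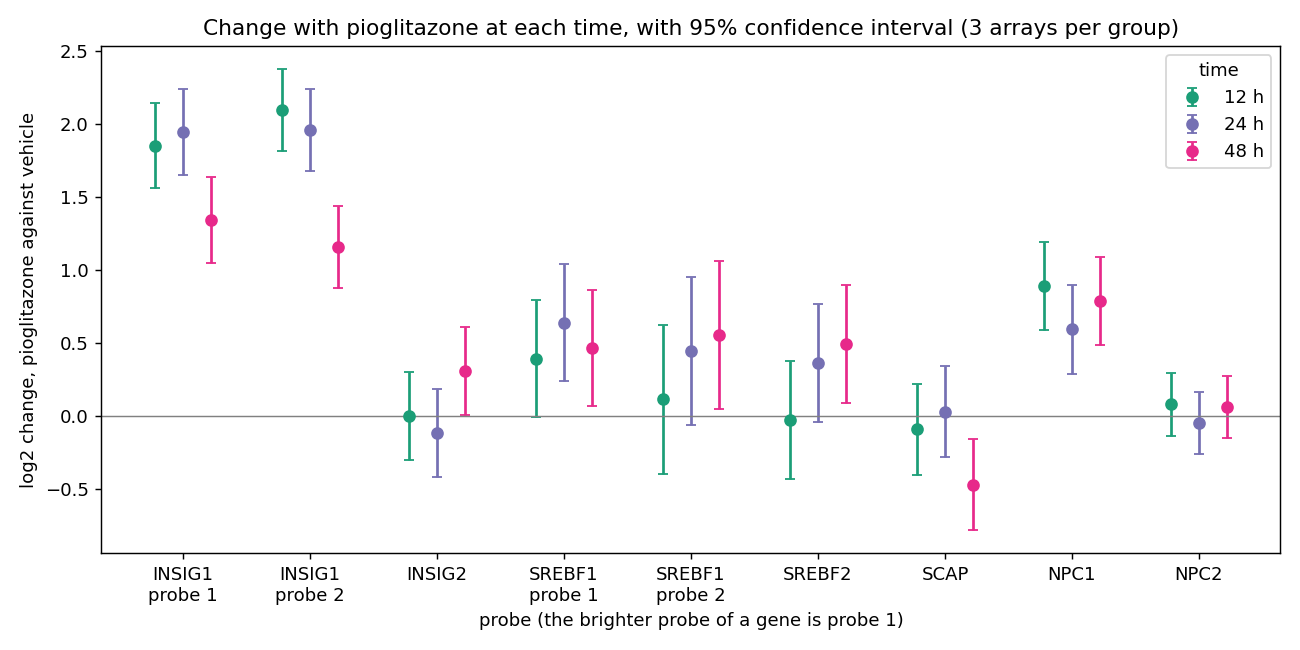
Log2 change with pioglitazone against vehicle at 12, 24 and 48 h for the 9 kept probes, as a point with its 95% confidence interval (3 arrays per group). Both INSIG1 probes stood between 1.16 and 2.10 and NPC1 between 0.59 and 0.89, while the intervals of NPC2 spanned 0 at every time.

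In the fit over all 11680 genes a gene passed at a Benjamini-Hochberg adjusted p under 0.05. At 12 h 2 of the 7 members passed as higher, INSIG1 and NPC1, beside 4.32% of all genes, and 0 as lower beside 4.48%. At 24 h 3 passed as higher, INSIG1, NPC1 and SREBF1, beside 10.5% of all genes, and 0 as lower beside 12.8%. At 48 h 2 passed as higher, INSIG1 and NPC1, beside 14.3%, and 1, SCAP, as lower beside 15.4%. Since the members were chosen with these contrasts known, nothing is read from these counts. Leaving out vehicle replicate 1 or 2 or pioglitazone replicate 1 or 2 at 24 h ended the pass of SREBF1 (log2 change 0.57 to 0.65). Leaving out the third pioglitazone array or vehicle replicate 1 or 3 at 48 h ended that of SCAP (−0.25 and −0.47), as did array weights (−0.20) and a fit of only the compared arrays. Without the third array SREBF2 passed instead (0.63), and without pioglitazone replicate 2 at 48 h SREBF1 passed (0.70). SREBF1 also passed at 48 h with the mean of its kept probes (0.51). At 24 h its other kept probe did not pass in the fit over all kept probes (0.45). SREBF1 passed at 12 h with array weights or only the compared arrays (0.39), and SREBF2 at 24 h with array weights (0.37). With median scaling in place of quantile normalisation only INSIG1 passed at each time. The treated arrays lay wholly above vehicle for 3, 4 and 3 members at 12, 24 and 48 h, beside 15.6%, 20.1% and 18% of all genes, and wholly below for 0, 0 and 1, beside 17.4%, 25.1% and 19.1%. The median change of the 7 members was 0.081, 0.36 and 0.47, against −0.0039, −0.022 and 0.011 for all genes. Without the third array at 48 h the members' median was 0.14, against −0.0094 for all genes. Then 3 members passed as higher beside 12.7% of all genes and 0 as lower beside 15.6%, while 3 lay wholly above vehicle beside 23.6% and 2, SCAP and NPC2, wholly below beside 27.1%.

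The course of the untreated cultures was a comparison that the choice of members did not use. Its arrays are, however, the vehicle side of the differences that were in view, so it is not fully independent of that choice. Between 12 and 48 h in vehicle, where all 6 arrays were of the lower background range, 0 of the 7 members passed by limma, beside 25.5% of all genes, and 1 had an unadjusted p under 0.05. That was SREBF1, with a log2 change of 0.45 (SE 0.19, limma adjusted p = 0.0876, n = 3 per group, higher on 3 of 3 arrays). INSIG2 stood at 0.27 (95% confidence interval −0.021 to 0.57), INSIG1 at 0.17 (−0.12 to 0.45) and NPC1 at −0.036 (−0.33 to 0.26). The second INSIG1 probe differed: it fell by 0.40 in vehicle (SE 0.13, limma adjusted p = 0.0375 over 20032 probes), with all 3 arrays at 48 h below those at 12 h. Leaving out any 1 of these 6 arrays ended that call, with changes of −0.45 to −0.38 and limma adjusted p of 0.0537 to 0.101.

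Between 12 and 48 h with pioglitazone, 2 of the 7 members passed, both as higher, beside 18.7% of all genes, and 0 as lower beside 19.2%. The treated arrays of both times also entered the differences between drug and vehicle that were known when the members were chosen. The p-values given here are therefore not independent of that choice. INSIG2 rose by 0.58 (SE 0.14, limma adjusted p = 0.00342), and by 0.40 without the third array (limma adjusted p = 0.0139). SREBF1 rose by 0.52 (SE 0.19, limma adjusted p = 0.0361), which rested on that array, since the value without it was 0.20 (limma adjusted p = 0.165). Leaving out any 1 pioglitazone array at 12 h also ended the pass of SREBF1 (0.50 to 0.56). The other kept SREBF1 probe rose by 0.69 (SE 0.24, limma adjusted p = 0.0341 over 20032 probes), and by 0.46 without the third array (limma adjusted p = 0.157). The first INSIG1 probe stood at −0.34 (SE 0.14, limma adjusted p = 0.0551), and at −0.37 without the third array, while the second fell by 1.34 (SE 0.13, limma adjusted p = 7.34e-07 over 20032 probes, 33.4% of which passed), and stood at −1.497 without the third array. SCAP depended on single arrays. It stood at −0.23 with all arrays, at −0.42 without pioglitazone replicate 1 at 48 h (limma adjusted p = 0.0154), and at −0.0058 without the third array (limma adjusted p = 0.971). Without the third array NPC1 stood at −0.35 (limma adjusted p = 0.0139), against −0.14 (limma adjusted p = 0.475) with it.

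Levels at 24 h differed from those at 12 h in the same direction in vehicle and drug for several members, though not always by a like amount. SREBF1 was higher by 0.97 in vehicle and by 1.22 with pioglitazone, INSIG2 by 0.68 and 0.57, and NPC1 by 0.49 and 0.20. SCAP was lower in both, at −0.60 and −0.48. All arrays at 24 h were of the higher background range and all at 12 h of the lower, so time and background range cannot be told apart here and no test is given.

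Interaction contrasts set the drug effects at different times against each other. They are built from the differences between drug and vehicle that were known when the members were chosen, so nothing is read from their counts. For the effect at 24 h minus that at 12 h, 0 of 7 members passed by limma, beside 0.693% of all genes, and 0 had an unadjusted p under 0.05. For 48 h minus 12 h, 0 passed beside 9.1% of all genes, and 1, INSIG1, had an unadjusted p under 0.05, with a difference of −0.51 (95% confidence interval −0.91 to −0.11), and of −0.54 without the third array. SCAP stood at −0.38, at −0.57 without pioglitazone replicate 1 at 48 h, where it passed, and at −0.16 without the third array. The second INSIG1 probe gave −0.94 (95% confidence interval −1.33 to −0.54), and −1.09 without the third array. It passed in the fit over 20032 probes, as did 6.32% of them, but not with median scaling (−0.86). NPC1 differed by −0.30 (95% confidence interval −0.72 to 0.12) between 12 and 24 h and by −0.10 (−0.52 to 0.32) between 12 and 48 h, or by −0.31 without the third array.

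Enzymes of sterol synthesis, from acetyl-CoA to cholesterol, which the SREBPs drive, were higher with pioglitazone alongside INSIG1. Of 17 tested enzymes out of 20 listed, 14 rose at 12 h, 16 at 24 h and 15 at 48 h, and 0 fell at any time. These counts stand beside the 4.32%, 10.5% and 14.3% of all genes that passed as higher. This list and the other gene lists were chosen with earlier results of these data known, so their counts are a description and not a test. Their median log2 change was 1.00, 1.20 and 0.98, and 15 also rose at 48 h without the third array. At 24 h the first was HMGCS1, a synthase early in the mevalonate pathway, at 1.86, followed by MVD, a decarboxylase of that pathway, at 1.80. PMVK, named after its values were seen, passed at no time (−0.065, −0.0047 and −0.36).

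Genes linked to SREBP processing and to the turnover of SREBP, INSIG, SCAP and the reductase formed the second list. Of 13 tested out of 16 listed, 0 rose and 0 fell at 12 h, and 1 fell at 24 h, ERLIN2, a scaffold of the sterol-stimulated degradation complex, at −0.49. Other ERLIN2 probes gave −0.21 and −0.12. At 48 h 2 rose and 3 fell, or 1 rose and 2 fell without the third array. Over all genes 4.32% rose and 4.48% fell at 12 h, and 10.5% rose and 12.8% fell at 24 h. At 48 h 14.3% of all genes rose and 15.4% fell, so that the counts at 48 h lay near the share over all genes. The median change was −0.054, −0.18 and 0.050.

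Genes of lysosomal and non-vesicular sterol transfer formed the third list. Of 22 tested out of 24 listed, 1 rose at 12 h, 4 rose at 24 h, and 2 rose and 2 fell at 48 h, or 3 rose and 3 fell without the third array. Over all genes 4.32%, 10.5% and 14.3% rose at these times and 15.4% fell at 48 h, so that at 12 and 48 h the counts lay near or below the share over all genes. The median change was 0.10, 0.091 and 0.14. LIPA, the lysosomal acid lipase that frees cholesterol from its esters upstream of NPC2 and NPC1, rose by 0.41 at 24 h. STARD5, a sterol carrier related to STARD4, rose by 1.23 at 12 h and by 0.41 at 24 h, and stood at −0.053 at 48 h.

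**Figure D4:**
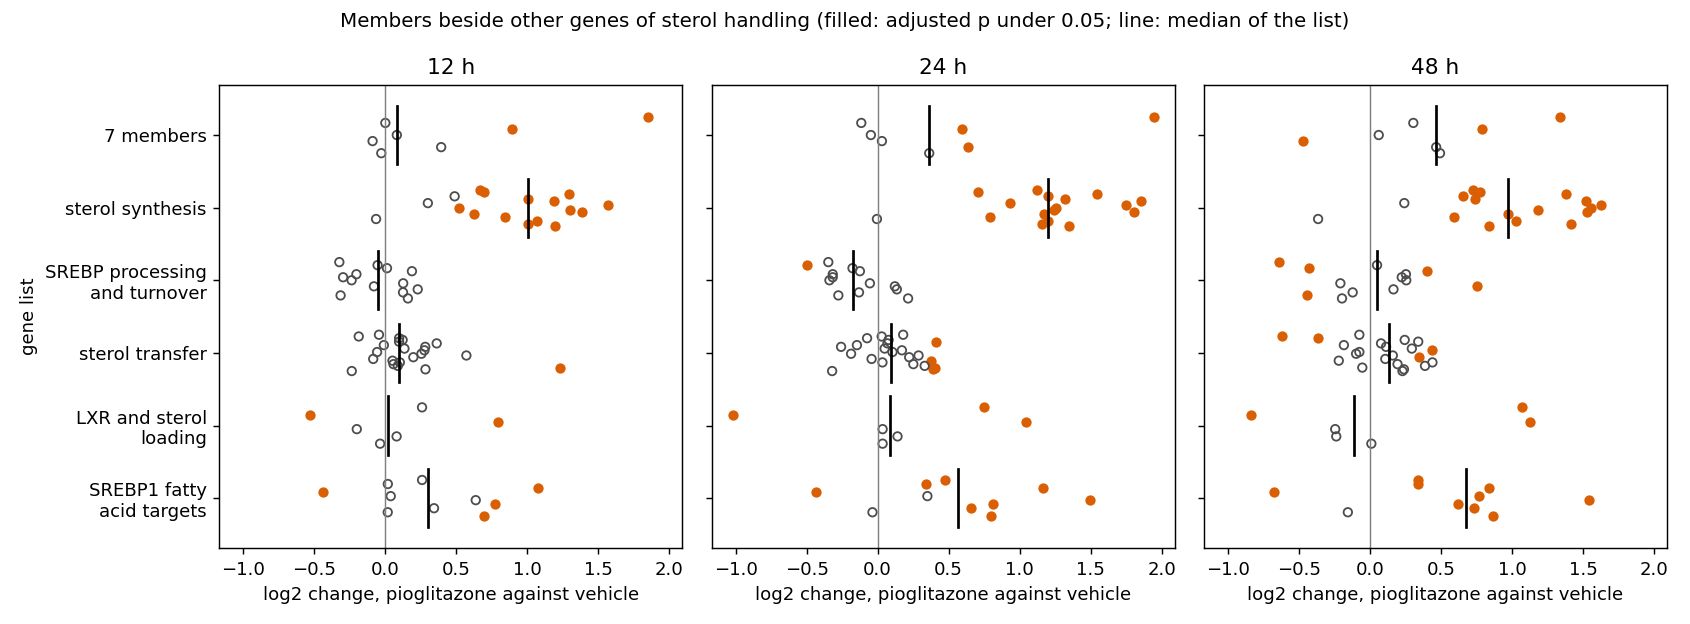
Log2 change with pioglitazone against vehicle of the 7 tested members and of 5 other gene lists at 12, 24 and 48 h. Each point is a gene, filled where its adjusted p was under 0.05, and each line is the median of the list, which for sterol synthesis was 1.00, 1.20 and 0.98.

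The genes nearest to each member were found from the 6 group means, centred for each gene, as those with the smallest root mean square difference on the log2 scale, for the 3 members whose group means spanned at least 1. For INSIG1 they were DHCR7 (0.24), which makes cholesterol in its last step, ALDOC (0.27), an aldolase, MSMO1 (0.28), a sterol methyl oxidase, and PFKFB4 (0.29), which sets the level of a glycolytic activator. For NPC1 they were SIRT2 (0.075), a deacetylase, SHLD1 (0.083), SLC29A3 (0.10), a lysosomal nucleoside transporter, and PNPLA8 (0.10). For SREBF1 they were DMGDH (0.056), VPS39 (0.075), C10orf95 (0.092) and UBAP2L (0.098). The highest group mean of SREBF1 (8.90) and of NPC1 (10.44) was pioglitazone at 24 h, and the lowest of INSIG1 (9.37) was vehicle at 24 h. All arrays at 24 h were of the higher background range. Likeness in expression and a shared shift with background range therefore cannot be told apart here. The distances are a description over 6 groups that share their arrays.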

How the data were processed

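Total RNA was labelled with biotin and hybridised to Illumina Human HT-12 v4 BeadChips. The deposited table held an unnormalised signal intensity and a detection p-value per probe and array, and the submitters' processing notes name GenomeStudio, with no version or genome build. A second table held intensities that the authors deposited after a background correction and quantile normalisation of unstated method. The 8 members and the other gene lists were chosen with earlier results of these data known. The promoter sequences come from a RefSeq table that held all 8 genes.

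From the deposited intensities, neqc (limma 3.58.1, R 4.3.3, offset 16) corrected the background and equalised the quantiles, and all changes are differences of the resulting log2 values. Probes with a detection p under 0.01 on at least 3 arrays were kept (20032). The platform annotation gave 1 symbol for 30113 probes, several for 8, which were not named, and none for 17202. For each gene the brightest kept probe on average was taken, and other probes came from a fit over all kept probes. One limma fit of 6 group means over 18 arrays (12 residual degrees of freedom) gave every comparison, with Benjamini-Hochberg adjustment. It was tested on simulated data. The median standard error of a change at 1 time was 0.15, limited by the number of arrays.

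The named genes were the 8 members, at most 2 per direction past the threshold at 24 h in each list, and the 4 nearest genes of each member whose group means spanned at least 1. The replicate numbers were not used to pair the arrays in the main fit. Same-numbered arrays of different groups had correlated deviations (r over 0.1) in 8 of 45 pairs, with r from −0.29 to 0.22. Arrays of different numbers were not compared, so this cannot decide whether the arrays were paired.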

Additional observations from a re-analysis of the deposited data

Results flagged for a closer look

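The drug effect on the second INSIG1 probe at 48 h minus that at 12 h was −0.94 on the log2 scale (95% confidence interval −1.33 to −0.54, 3 arrays per group). It stood out because this interaction contrast passed the threshold over 20032 probes, as did 6.32% of them. It is a description, since INSIG1 was chosen with the effects at both times known, and nothing is read from that pass. The pioglitazone arrays at 48 h, at 7.82, 8.17 and 8.47, all lay below those at 12 h, and vehicle stood lower at 48 h by −0.40. The contrast kept its direction without each 1 of the 12 arrays in turn (−1.09 to −0.77). It also did so with median scaling (−0.86), where it did not pass. The first INSIG1 probe gave −0.51 for the same contrast and did not pass. Both probes are annotated to the same transcript, and what separates them was not tested.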

How the results depend on the processing

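With median scaling in place of quantile normalisation the median of all genes shifted to 0.11, −0.20 and 0.26 at 12, 24 and 48 h, and 23, 448 and 554 genes passed for the drug against vehicle in place of 1028, 2725 and 3469. Of the members 1 passed at each time, INSIG1, and 0 passed for pioglitazone at 48 against 12 h. NPC1 then stood at 1.04, 0.37 and 1.09 without passing, so its changes relative to all genes kept their direction. In vehicle at 48 against 12 h 2 members passed with array weights, whose estimation stopped before convergence, and 1 with only the compared arrays. For pioglitazone at 48 against 12 h 1 passed without the detection filter and 1 with only the compared arrays, and leaving out single arrays gave 1 to 3. For the effect at 48 h minus that at 12 h 1 passed, INSIG1, with the mean of its probes, and leaving out single arrays gave 0 to 1. The other counts stayed within 1.5 times under neqc with an offset of 50, no background correction, the authors' processed values (with a floor of 10, set after their values were seen), and detection on all 18 arrays. The fit with the replicate number as a block gave 2, 3 and 3 members for the drug at 12, 24 and 48 h and 0 for vehicle at 48 against 12 h. It gave 3 for pioglitazone at 48 against 12 h, where INSIG1 passed (adjusted p = 0.0462), and 0 for both interactions.

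Signs turned only for values that did not pass. In vehicle at 48 against 12 h these were INSIG1, at −0.079 with median scaling and −0.12 with the mean of its probes, SCAP at −0.096 with median scaling, and NPC1 at 0.021 without vehicle replicate 1 at 12 h. SCAP stood at 0.027 for pioglitazone at 48 against 12 h with array weights. For the effect at 24 h minus that at 12 h, median scaling gave −0.27 for INSIG1, −0.14 for SREBF1 and −0.21 for SCAP. There INSIG1 also stood at −0.024 with the mean of its probes and at −0.058 without vehicle replicate 2 at 24 h. For the effect at 48 h minus that at 12 h, NPC1 stood at 0.050 with median scaling and at 0.013 without pioglitazone replicate 1 at 48 h. NPC2 stood at 0.0097, 0.037 and 0.040 without single arrays. SREBF1 stood at −0.10 with array weights and at −0.25 without the third pioglitazone array at 48 h, whether left out of the fit or also of the normalisation, an alternative chosen after seeing the data. Leaving out single arrays gave ranges of −0.071 to 0.021 for NPC1 in vehicle and −0.058 to 0.24 for INSIG1 in the first interaction. In the second they were −0.25 to 0.31 for SREBF1, −0.31 to 0.013 for NPC1 and −0.13 to 0.040 for NPC2. Among the drug against vehicle values that did not pass, 20 changed sign, 3 of them by more than 1 pooled SD between replicates. That these untested values were judged by their size was decided after the sign changes were seen. The division of the arrays by background was also set after seeing the values. The causes were not tested.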

Other observations

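Among LXR and the genes it turns on when sterol accumulates, 1 of 6 tested members out of 7 listed rose and 1 fell at 12 h, and 2 rose and 1 fell at both 24 and 48 h. LPCAT3, which remodels phospholipids, rose by 1.05 and ABCA1, a cholesterol exporter, by 0.75 at 24 h, while ABCG1, another exporter, fell by 1.02. At 48 h without the third pioglitazone array 2 rose and 2 fell. Over all genes 4.32%, 10.5% and 14.3% rose and 4.48%, 12.8% and 15.4% fell at 12, 24 and 48 h. The median change of this list was 0.022, 0.088 and −0.11.

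Among fatty acid genes driven by SREBP-1, 3 of 10 tested members out of 11 listed rose at 12 h, 7 at 24 h and 8 at 48 h, also 8 without the third array, and 1, the elongase gene ELOVL6, fell at each time (−0.43 at 24 h). These counts stand beside the same shares over all genes and are a description, since the list was chosen with earlier results known. The median change was 0.30, 0.57 and 0.68. The desaturase gene FADS2 rose by 1.5 and ACSS2, which makes acetyl-CoA from acetate, by 1.17 at 24 h, where other ACSS2 probes gave 1.11 and 1.29.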
